A study of Mus musculus with 48 samples.

Results

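The 28 genes described here encode voltage-gated sodium and calcium channels and their auxiliary subunits, and the measurements are counts of methylated DNA captured at these genes in the amygdala of adult mice. A locus was taken as belonging to a gene when it overlapped the gene body or the 5 kb on either side of it. By this rule 448 of the 187695 captured loci of the series were assigned, and 27 of the 28 genes had at least 1 of them. Scn3b, a sodium channel beta subunit gene, had none. The genes comprise 7 sodium channel alpha subunits, 3 sodium channel beta subunits, 4 L-type calcium channels, 3 P/Q-, N- and R-type calcium channels, 3 T-type calcium channels, 4 alpha2delta subunits and 4 calcium channel beta subunits.

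The animals were males of 4 months, labelled as C57BL/6 and bred from parents backcrossed on C57BL/6N, and they were wildtype (Tph2+/+), heterozygous (Tph2+/-) or homozygous (Tph2-/-) for a constitutive inactivation of Tph2, which encodes the rate-limiting enzyme of serotonin synthesis in the brain. Offspring of each genotype had been kept away from their dam for 3 h on each of the postnatal days 2 to 15 (maternal separation, MS) or served as controls (C), which gave 6 groups of 8 animals. Every animal was the offspring of Tph2+/- parents and had gone through behavioural tests before the tissue was taken. DNA from the amygdala of both hemispheres was fragmented, and fragments with methylated CpG sites were bound to a methyl-CpG-binding protein domain, eluted and sequenced (MBD-seq). The inactivation was present in all cells from conception, and the amygdala is a mixture of neurons and other cells, so that a different share of a cell type and a different methylation within cells cannot be told apart.

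Voltage-gated sodium channels open on depolarisation and carry the rising phase of the action potential. Their alpha subunits form the pore, and the beta subunits adjust gating and placement in the membrane. Voltage-gated calcium channels turn the electrical signal into calcium entry, which triggers transmitter release through the P/Q-, N- and R-type channels, gene transcription and dendritic signalling through the L-type channels, and burst firing through the T-type channels. Alpha2delta and beta subunits bring the pore to the membrane and change its kinetics. Methylation of a CpG-rich promoter goes with a silent gene, whereas the bodies of transcribed genes are usually methylated.

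The libraries held 7.72 to 14.1 Mcounts (mega-counts), with a mean of 10.7 ± 1.4 Mcounts (SD, n = 48). The study had left out 2 Tph2-/- MS libraries for low counts, a shifted density of the signal and extra small peaks, and the labels do not name them. Here the 2 shallowest libraries of that group were left out of all tests and group values, replicate 3 with 8.09 and replicate 7 with 8.23 Mcounts. They may not be those of the study, and a Tph2+/- C library with 7.72 Mcounts was kept. A group of 9 MS libraries, numbered S18 to S26 in the labels, had a steeper dependence of counts on the CpG density of a locus, with a mean slope of 0.118 ± 0.115 (log2 CPM per SD of CpG density; SD, n = 9), against -0.024 ± 0.056 in the MS libraries S27 to S41 (n = 15). Replicate 3 of Tph2-/- MS, which was left out, had a slope of 0.333, and replicate 2, which was kept, had 0.242. The slope was -0.021 ± 0.036 (n = 17) and -0.050 ± 0.040 (n = 7) in the libraries S1 to S17 and S42 to S48, which include every control. Sample number and separation therefore cannot be told apart, and values without S18 to S26 are given where they bear on a result. Those values rest on smaller MS groups. Of the 6 Tph2-/- MS libraries in the tests, replicates 1, 2 and 4 are then left out. So are replicates 1 and 2 of Tph2+/- MS and replicates 1, 2 and 3 of Tph2+/+ MS. Tph2 itself was no check of the labels, since the inactivation does not have to change capture: its 15 loci summed to 38.3 to 41.8 CPM (counts per Mcount of the library) as group means.

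The channel loci held 0.108 to 0.163% of a library's counts, which came to 8741 to 22745 counts per library. Single loci were shallow, with a mean of 11.6 to 428 counts per library and a median of 24.9. The median standard error of a log2 fold change (lg2FC) was 0.130 for the effect of MS over genotypes and 0.311 for the interaction GE1 at a single channel locus, against 0.042 and 0.101 for sums over a gene. The median standard error of the effect of MS within Tph2+/+ was 0.218, so that a change close to the limit of 0.2 was not detectable at a single locus at this depth.

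The sequences below show what was and was not captured at promoters. They are the 250 bases before the annotated start of 4 channel genes, taken from RefSeq on GRCm38.p6, written 5′ to 3′ on the strand of the gene with every CpG in capitals. The first pair had a captured locus at the start site and the second pair had none.
Scn10a, chr9:119719033-119719282, minus strand, locus at the start: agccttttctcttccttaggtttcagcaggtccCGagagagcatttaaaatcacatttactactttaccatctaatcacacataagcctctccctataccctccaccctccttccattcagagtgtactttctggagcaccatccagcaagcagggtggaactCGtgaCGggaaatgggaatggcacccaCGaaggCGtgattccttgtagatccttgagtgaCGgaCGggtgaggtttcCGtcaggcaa
Cacna1s, chr1:136052561-136052810, plus strand, locus at the start: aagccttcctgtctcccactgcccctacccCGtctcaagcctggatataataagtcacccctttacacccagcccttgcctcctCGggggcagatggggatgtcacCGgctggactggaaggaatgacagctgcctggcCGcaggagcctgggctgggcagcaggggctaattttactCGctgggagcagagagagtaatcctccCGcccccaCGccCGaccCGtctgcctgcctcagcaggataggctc
Cacna1d, chr14:30353487-30353736, minus strand, no locus at the start: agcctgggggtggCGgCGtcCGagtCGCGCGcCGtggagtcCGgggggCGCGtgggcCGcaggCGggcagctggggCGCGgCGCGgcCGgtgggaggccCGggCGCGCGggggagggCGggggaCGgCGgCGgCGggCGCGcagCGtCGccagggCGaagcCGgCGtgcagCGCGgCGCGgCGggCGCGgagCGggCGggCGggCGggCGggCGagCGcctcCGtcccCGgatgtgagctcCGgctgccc
Cacna2d2, chr9:107399630-107399879, plus strand, no locus at the start: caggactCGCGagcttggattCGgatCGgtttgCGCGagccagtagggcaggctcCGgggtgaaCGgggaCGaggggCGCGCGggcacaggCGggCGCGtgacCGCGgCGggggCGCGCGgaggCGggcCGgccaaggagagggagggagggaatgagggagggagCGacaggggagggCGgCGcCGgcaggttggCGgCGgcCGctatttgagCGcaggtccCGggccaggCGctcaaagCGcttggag
The 2 captured stretches hold 8 and 9 CpG, and the 2 stretches without a locus hold 50 and 34. Stretches with few CpG also lacked a locus, such as that of another Cacna1d start with 2 CpG.

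Over all 31 promoter windows found for 22 of the 28 genes (250 bases before to 50 bases after a start), 4 windows overlapped a locus and 27 did not. The captured windows were those of Scn4a with 4 CpG, Cacna1s with 9, Scn10a with 11 and an alternative start of Scn8a with 12. Scn10a encodes a sodium channel of sensory neurons, Scn4a and Cacna1s the sodium and calcium channels of skeletal muscle, and Scn8a a sodium channel of central neurons. The windows of Scn11a and Scn9a, also of sensory neurons, and of the retinal Cacna1f had no locus, with 3, 9 and 5 CpG. The 27 windows without a locus had a median of 23 CpG and ranged from 2 to 63, and all 14 windows with more than 12 CpG were among them, those of Cacna1d, Cacna1c, Cacna2d2, Cacna2d1 and Cacna2d3 leading with 63, 57, 43, 42 and 41 CpG. Absence of a locus means that no peak was called there, which does not by itself give a methylation level. Among all annotated promoters of the same length, 3433 windows (10.5%) overlapped a locus and 29418 did not, with medians of 6 and 8 CpG.

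**Figure D1:**
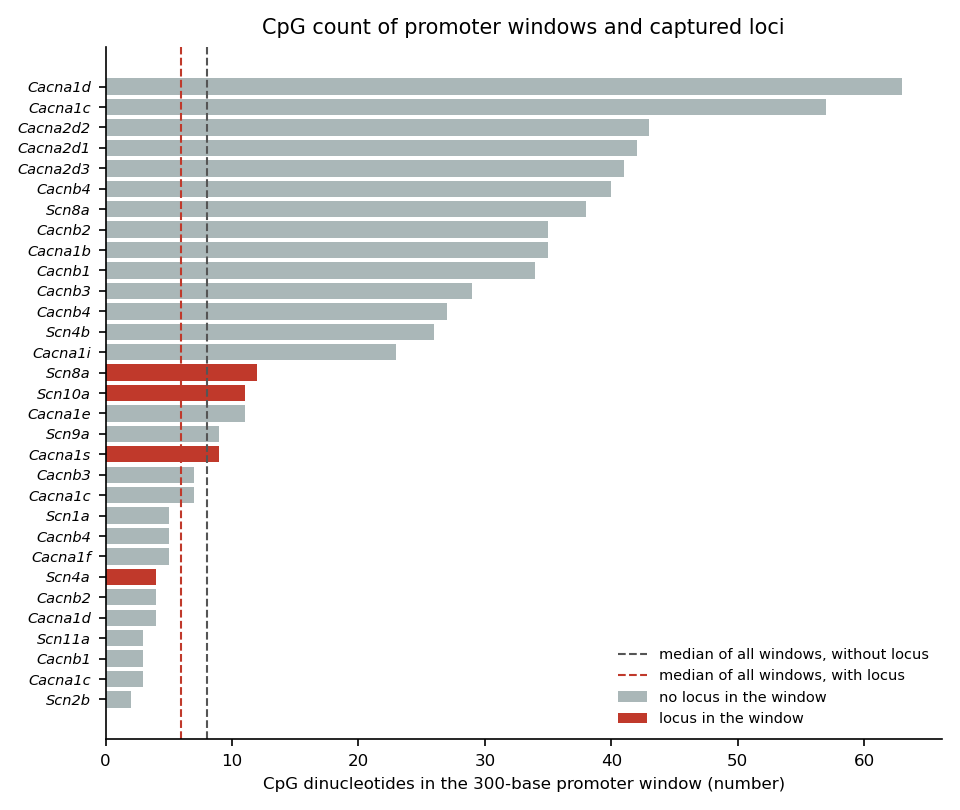
Number of CpG dinucleotides in each 300-base promoter window of the channel genes (horizontal bars, 1 per annotated start, from RefSeq), red where a captured locus overlapped the window and grey where none did. The dashed lines are the medians of all annotated windows, 6 CpG with a locus and 8 without, and the 4 red bars lie between 4 and 12 CpG while the grey bars reach 63.

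Start sites were captured at channel genes about as often as at genes in general. A locus lay within 500 bp of an annotated start in 4 of the 28 genes (14.3%), against 3199 of 21886 protein-coding genes (14.6%). A locus anywhere in the gene or its flanks was present in 96.4% of the channel genes and in 78.5% of all. The density of loci was close to that of other genes, with a median of 6.65 loci per 100 kb against 7.34, and the median level per length of locus was 2.94 CPM per kb against 2.93. The 5 loci at channel start sites had 1.76 CPM (Scn10a, exon 2) to 5.96 CPM (Scn4a, exons 1 to 5), and none was called in any of the 8 contrasts described below. The start-site locus nearest to a call was, for MS over genotypes, the one at the alternative start of Scn8a, a sodium channel of central neurons, with an lg2FC of 0.26 ± 0.16 (SE, edgeR adjusted p = 0.52).

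Most captured loci lay inside the genes. Introns held 229 of the 448 loci (51.1%) and coding exons 178 (39.7%), followed by the downstream flank with 18, the upstream flank with 13, and start sites and untranslated exons with 5 each. The level per length was 2.84 CPM per kb (median) in coding exons and 2.64 in introns, with 2.17 and 1.76 CpG per 100 bp. In comparison with all loci of the series, the channel loci had a median of 1.98 CpG per 100 bp against 1.82 and of 11.8% repeat sequence against 23.2%, and a level of 2.69 CPM per kb against 2.76. Across the channel loci, level and CpG density were related with a Spearman rho of 0.34, and with a rho of 0.45 across all 187695 loci. These are descriptions across loci that share libraries. A further coding gene overlapped 18 of the channel loci, whose counts cannot be assigned to either gene.

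**Figure D2:**
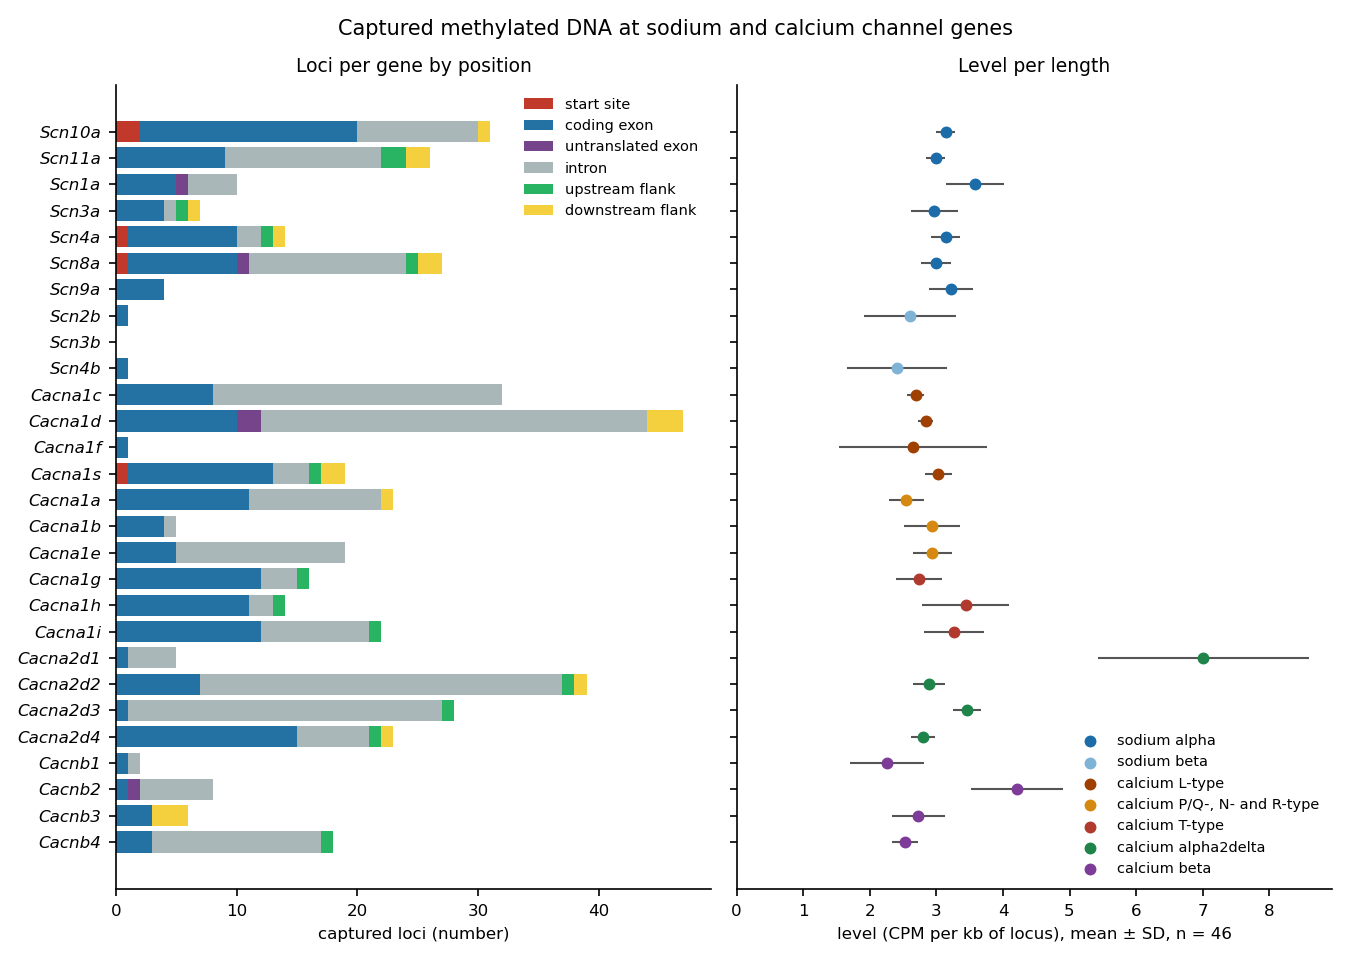
Left, number of captured loci per gene (horizontal bars), split by position in the gene. Right, level of the gene in CPM per kb of captured locus as mean ± SD over 46 libraries, coloured by family. Cacna1d had the largest number with 47 loci, Scn3b had 0, and Cacna2d1 had the highest level at 7.01 CPM per kb while the other genes lay between 2.26 and 4.21.

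Among the sodium channel alpha genes, the density of loci ran from 2.43 to 31.8 per 100 kb. Scn11a, a channel of pain-sensing neurons, had 26 loci or 31.8 per 100 kb, Scn4a of skeletal muscle had 14 (31.3 per 100 kb) and Scn10a had 31 (25.6 per 100 kb), which put them at the percentiles 97.2, 97.0 and 92.6 of all protein-coding genes. The channels of central neurons were covered less densely, with 14.5 loci per 100 kb in Scn8a (27 loci), 5.81 in Scn3a (7 loci) and 5.55 in Scn1a (10 loci). Scn9a, another channel of sensory neurons, had the lowest density with 4 loci or 2.43 per 100 kb (percentile 27.3), all in coding exons. Levels per length were similar, from 2.97 ± 0.353 CPM per kb in Scn3a to 3.58 ± 0.432 in Scn1a (SD, n = 46). Scn2b and Scn4b, the beta subunit genes with counts, had 1 locus each, with 2.60 ± 0.692 and 2.41 ± 0.750 CPM per kb.

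The L-type genes had 99 loci. Cacna1d, a neuronal and endocrine L-type pore, had 47 loci and the steadiest gene sum, with 132 ± 5.28 CPM (SD, n = 46) and a coefficient of variation of 4.00%. Cacna1c, the main neuronal and cardiac L-type pore, had 32 loci at 2.69 ± 0.130 CPM per kb, and Cacna1s had 19 at 3.03 ± 0.208. Cacna1f, the retinal L-type pore on the X chromosome, had 1 locus with a mean of 20.2 counts and a coefficient of variation of 41.8%, so that no change of moderate size was detectable in it. The presynaptic genes Cacna1a (P/Q-type), Cacna1b (N-type) and Cacna1e (R-type) had 23, 5 and 19 loci at 2.55, 2.94 and 2.94 CPM per kb.

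The T-type genes Cacna1g, Cacna1h and Cacna1i had 16, 14 and 22 loci at a density of 21.1, 20.1 and 18.2 per 100 kb, and 35 of these 52 loci lay in coding exons. Their levels were 2.74 ± 0.344, 3.44 ± 0.656 and 3.26 ± 0.448 CPM per kb (SD, n = 46). Of the genes with 10 or more loci, Cacna1h varied most between libraries, with a coefficient of variation of 19.1%.

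The auxiliary calcium channel genes held the highest levels. Cacna2d1, the alpha2delta subunit that binds gabapentin, had only 5 loci but reached 7.01 ± 1.58 CPM per kb (SD, n = 46), which was the percentile 98.7 of protein-coding genes with a locus. Its highest locus lay in intron 3 (chr5:16071900-16073547) at 11.8 CPM per kb, with 79.2% repeat sequence, and the loci in intron 4 and intron 10 at 8.45 and 7.59 CPM per kb were repeats to 86.2% and 89.1%. Its only exonic locus, in exon 13, had 2.21 CPM per kb. Cacnb2 followed with 4.21 ± 0.694 CPM per kb, led by a locus in intron 2 at 7.81 CPM per kb with 83.1% repeats, and Cacna2d3 held a locus in intron 11 at 7.21 CPM per kb that was repeat to 98.8%. The highest loci of these 3 genes were thus repeat-rich introns. Across the 448 channel loci, however, level and repeat share were related with a Spearman rho of only 0.03, and across all loci with 0.23. How reads that map to several copies were counted is not given in the sources used here, and its part in these levels was not tested. The remaining genes Cacna2d2 (39 loci), Cacna2d4 (23), Cacnb4 (18), Cacnb3 (6) and Cacnb1 (2) had 2.89, 2.80, 2.53, 2.73 and 2.26 CPM per kb.

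Differences between groups were tested over all loci with the quasi-likelihood test of edgeR, adjusted after Benjamini-Hochberg over all loci. A locus counted as called when its unadjusted p was under 0.01 and its lg2FC beyond 0.2, which are the limits used in the study. The interactions ask whether the effect of MS depended on genotype: GE1 is the effect of MS in Tph2+/- minus that in Tph2+/+, and GE2 the effect in Tph2-/- minus that in Tph2+/+. Over 8 contrasts, 34 channel loci in 19 genes were called at least once and 11 of them in 2 or more contrasts, several of which share groups. These are 7.59% and 2.46% of the channel loci, where 7.52% and 1.94% of all loci were called at least once and in 2 or more contrasts. With an adjusted p under 0.05, edgeR called 0 channel loci in each contrast, and DESeq2 called 1 for MS over genotypes and 0 in the others. The share of channel loci called was below that of all loci in GE1, GE2, MS over genotypes and MS in Tph2-/-, and above it in the other 4 contrasts, and each share rests on 2 to 15 loci. Each call was repeated under up to 8 alternative analyses, and a locus with a mean under 20 counts could not enter the 1 of them that leaves out low counts.

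For GE1, 2 of 448 channel loci were called (0.446%), 1 higher and 1 lower, where 0.626% of all loci were called. At an unadjusted p under 0.05, 18 channel loci passed, where 3.71% of all loci did. Both calls lay in Cacna1d. The first was in intron 3 (chr14:30214120-30214849), of which the central 300 bases of the plus strand follow with CpG in capitals, shown because this locus kept its call under every alternative analysis.
Cacna1d intron 3, chr14:30214335-30214634: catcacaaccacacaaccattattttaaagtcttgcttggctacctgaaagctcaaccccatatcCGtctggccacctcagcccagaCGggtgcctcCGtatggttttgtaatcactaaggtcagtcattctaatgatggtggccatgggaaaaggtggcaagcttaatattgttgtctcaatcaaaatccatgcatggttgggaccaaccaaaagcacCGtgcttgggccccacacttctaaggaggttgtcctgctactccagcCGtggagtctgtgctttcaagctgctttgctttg
Capture at this locus ran from 1.97 to 3.64 CPM with a median of 2.67 in Tph2+/- C (lowest, highest and median of 8 libraries) and from 1.29 to 2.47 with a median of 1.73 in Tph2+/- MS. In Tph2+/+ it was 1.39 to 2.95 with a median of 2.09 in C and 1.75 to 3.20 with a median of 2.50 in MS. Most Tph2+/- MS libraries were thus below the lowest Tph2+/- C library, with some overlap, while in Tph2+/+ the ranges overlapped over most of their length. The lg2FC of the interaction was -0.90 ± 0.28 (SE, edgeR adjusted p = 1), and the effect of MS within Tph2+/- was -0.67 ± 0.20 (adjusted p = 1).

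The other GE1 locus in Cacna1d (chr14:30481811-30482323) lay 8833 bp from the nearest start and also overlapped Dcp1a, a gene of mRNA decapping, so that its counts belong to either gene. Its median was 1.71 CPM (1.44 to 2.86) in Tph2+/+ C and 1.06 (0.492 to 1.51) in Tph2+/+ MS, while the medians in Tph2+/- were 1.30 (0.280 to 2.37) in C and 1.59 (0.756 to 2.48) in MS. The C and MS ranges of Tph2+/+ met only at their edges, and those of Tph2+/- overlapped. The lg2FC was 1.07 ± 0.40 (SE, edgeR adjusted p = 1), and the call was lost without S18 to S26. With a mean of 15.1 counts per library, this locus was among the shallower ones.

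For GE2, 2 channel loci were called, both higher (0.446%), where 0.558% of all loci were called, and 14 passed an unadjusted p under 0.05, where 3.36% of all loci did. One was in exons 48 to 49 of Cacna1d (chr14:30041879-30043492), near the end of the coding sequence, and its central 300 bases are given because they contrast with the CpG-dense start of the same gene.
Cacna1d exons 48 to 49 locus, chr14:30042536-30042835: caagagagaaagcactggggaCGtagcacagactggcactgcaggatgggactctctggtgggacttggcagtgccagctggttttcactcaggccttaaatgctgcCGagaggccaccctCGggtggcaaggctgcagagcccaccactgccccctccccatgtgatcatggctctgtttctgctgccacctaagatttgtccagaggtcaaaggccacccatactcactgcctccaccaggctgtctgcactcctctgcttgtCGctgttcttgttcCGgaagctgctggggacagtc
The locus had 4.76 to 7.01 CPM (median 5.36) in Tph2+/+ C and 2.62 to 5.14 (median 4.13) in Tph2+/+ MS, but 3.92 to 5.35 (median 4.89) in Tph2-/- C and 3.76 to 6.62 (median 5.90) in the 6 Tph2-/- MS libraries. The medians after MS were thus lower in Tph2+/+ and higher in Tph2-/-, and the ranges overlapped in both. The lg2FC of GE2 was 0.72 ± 0.21 (SE, edgeR adjusted p = 1), and it was no longer called without S18 to S26. The effect of MS within Tph2+/+, an lg2FC of -0.45 ± 0.15 (adjusted p = 0.752), was called under every alternative.

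The second GE2 locus was in exon 3 of Cacna2d2 (chr9:107464332-107466226), an alpha2delta subunit. Its medians were 6.32 CPM (4.94 to 8.46) in Tph2+/+ C and 5.08 (3.21 to 6.03) in Tph2+/+ MS, against 5.42 (4.72 to 6.83) in Tph2-/- C and 6.56 (4.28 to 7.56) in Tph2-/- MS. The ranges overlapped in both genotypes. The lg2FC was 0.59 ± 0.20 (SE, edgeR adjusted p = 1), and the call was lost with all 48 libraries, with replicate 2 in place of replicate 7 of Tph2-/- MS left out, and without S18 to S26.

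**Figure D3:**
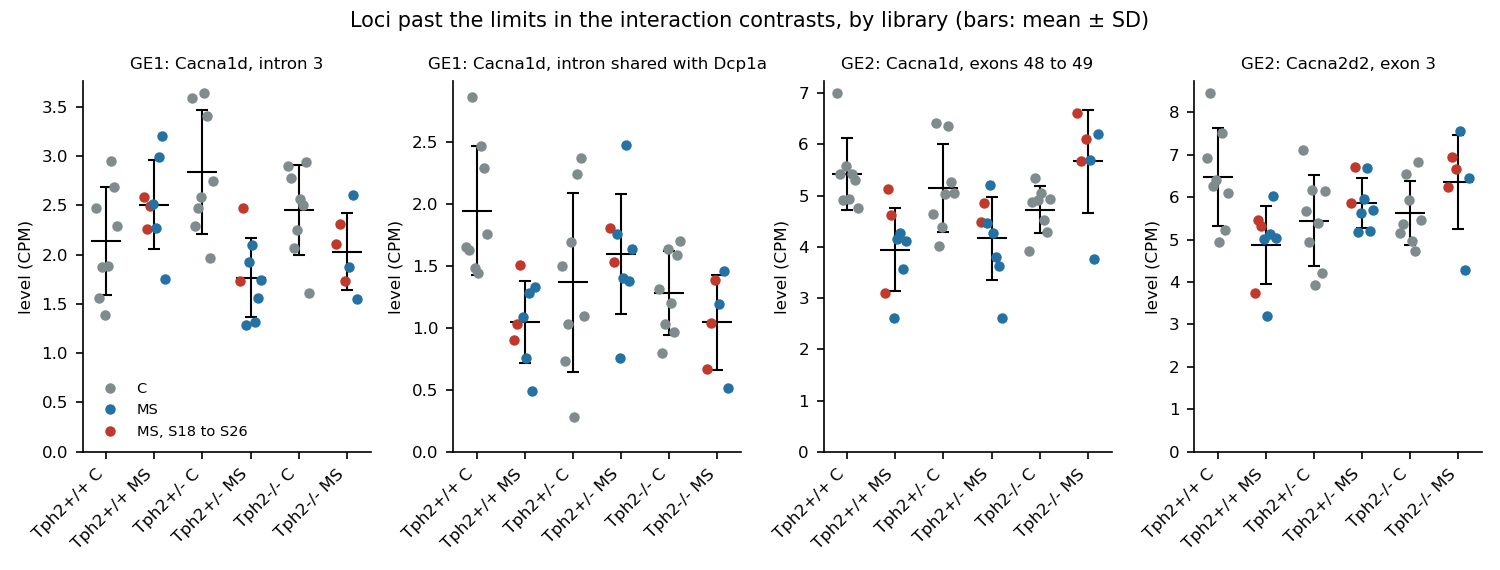
CPM per library (points) at the 4 channel loci called in the interaction contrasts, by group, with mean ± SD as black bars; red points are the MS libraries S18 to S26. In Cacna1d intron 3 the Tph2+/- MS libraries (1.29 to 2.47 CPM) lie below most Tph2+/- C libraries (1.97 to 3.64), and in Cacna1d exons 48 to 49 the Tph2+/+ MS libraries (2.62 to 5.14) lie below most Tph2+/+ C libraries (4.76 to 7.01).

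Over all genotypes, MS went with 15 called channel loci (3.35%), 13 higher and 2 lower, where 3.63% of all loci were called, 4284 of 6816 of them higher. An unadjusted p under 0.05 was reached by 48 channel loci, where 12.2% of all loci reached it. Without S18 to S26, 7 channel loci passed the limits, 3 higher and 4 lower (1.56%), where 1.26% of all loci passed, and 13 of the 15 calls were lost. With the CpG slope of the library as a covariate, 10 of the 15 were lost.

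The sodium channel genes of sensory neurons had the 2 smallest p. In Scn11a the locus covered exons 5 to 6 (chr9:119810111-119813433), and its central 300 bases hold 13 CpG.
Scn11a exons 5 to 6 locus, chr9:119811623-119811922: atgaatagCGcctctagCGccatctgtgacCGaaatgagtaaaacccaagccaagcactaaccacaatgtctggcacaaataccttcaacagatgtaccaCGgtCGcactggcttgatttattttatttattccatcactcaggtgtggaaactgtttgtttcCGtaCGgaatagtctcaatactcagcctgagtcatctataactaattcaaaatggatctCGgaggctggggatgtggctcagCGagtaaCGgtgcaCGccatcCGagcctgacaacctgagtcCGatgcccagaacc
The C libraries had medians of 8.84, 8.80 and 8.82 CPM in Tph2+/+, Tph2+/- and Tph2-/-, with a range of 6.55 to 11 over the 3 groups. The MS libraries had medians of 10.5, 9.95 and 10.4 CPM and reached 17.3 in Tph2+/+. The C and MS ranges overlapped in each genotype, with higher medians after MS in all 3. The lg2FC over genotypes was 0.31 ± 0.08 (SE, edgeR adjusted p = 0.0975), and without S18 to S26 it was not called. In Scn10a, exon 27 (chr9:119612903-119613879) showed an lg2FC of 0.42 ± 0.12 (adjusted p = 0.132), with C medians of 3.09, 2.75 and 3.14 and MS medians of 3.87, 3.78 and 3.95 CPM. This call too was lost without S18 to S26.

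Most of the other calls over genotypes lay in calcium channel genes, which also hold most of the channel loci. Cacna2d2 intron 2 (0.42 ± 0.12), Cacna2d3 intron 11 (0.22 ± 0.07) and Cacna1h exons 30 to 34 (0.32 ± 0.10) were higher after MS (lg2FC ± SE), with edgeR adjusted p of 0.153, 0.165 and 0.176. All 3 calls were lost without S18 to S26. The Cacna2d3 locus is the repeat-rich one described above, with group medians of 36.5 to 42.6 CPM. Only 2 loci were lower: an intron of an alternative transcript of Cacna1c (chr6:119132536-119133028) and the untranslated last exon of Scn1a (chr2:66271993-66272616). The Cacna1c locus has 4 CpG and kept its call in every alternative run, and its central 300 bases are set beside those of the Cacna1h locus, which has 78 CpG.
Cacna1c intron locus, chr6:119132633-119132932: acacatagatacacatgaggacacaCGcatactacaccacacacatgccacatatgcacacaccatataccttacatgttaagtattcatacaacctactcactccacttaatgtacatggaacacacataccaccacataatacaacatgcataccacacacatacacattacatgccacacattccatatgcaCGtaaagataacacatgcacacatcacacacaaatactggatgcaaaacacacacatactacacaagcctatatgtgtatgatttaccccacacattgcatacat
Cacna1h exons 30 to 34 locus, chr17:25377562-25377861: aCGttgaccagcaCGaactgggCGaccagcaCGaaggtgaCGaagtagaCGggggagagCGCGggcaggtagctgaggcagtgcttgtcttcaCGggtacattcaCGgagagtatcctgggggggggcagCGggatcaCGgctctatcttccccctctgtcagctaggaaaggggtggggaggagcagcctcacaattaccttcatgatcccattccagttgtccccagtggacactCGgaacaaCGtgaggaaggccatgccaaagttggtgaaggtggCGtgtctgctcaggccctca
The 300 bases from Cacna1c contain 2 CpG and those from Cacna1h contain 15. At the Cacna1c locus the medians of C and MS were 1.71 and 1.72 CPM in Tph2+/+, 2.01 and 1.10 in Tph2+/-, and 1.34 and 0.893 in Tph2-/-, with an lg2FC over genotypes of -0.51 ± 0.17 (SE, edgeR adjusted p = 0.194). The medians after MS were thus lower in Tph2+/- and Tph2-/- and alike in Tph2+/+, and neither interaction was called at this locus. Apart from it, 1 call held under every alternative that could be run, in intron 21 of Cacna1a (chr8:84568146-84568813, 0.41 ± 0.15, edgeR adjusted p = 0.241), named after its values were seen.

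Within Tph2+/+, 7 channel loci were called for MS (1.56%), 3 higher and 4 lower, where 1.31% of all loci were called. At an unadjusted p under 0.05, 23 channel loci passed, where 6.52% of all loci did. The lower loci were those of the interactions, Cacna1d near Dcp1a (-0.86 ± 0.28), Cacna1d exons 48 to 49 (-0.45 ± 0.15) and Cacna2d2 exon 3 (-0.41 ± 0.14), together with intron 2 of Cacna2d3 (-0.63 ± 0.23, lg2FC ± SE). These comparisons share the Tph2+/+ libraries with GE1 and GE2. Their adjusted p by edgeR were 0.752 to 0.756. The higher loci were Scn11a exons 5 to 6 (0.40 ± 0.13), Cacna1s exon 35 (0.44 ± 0.17) and intron 15 of Cacna1b (0.57 ± 0.22), with adjusted p of 0.749 to 0.756. The last was named after its values were seen. Only the 2 Cacna1d loci were called under every alternative.

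Within Tph2+/-, 6 channel loci were called for MS (1.34%), 1 higher and 5 lower, where 0.779% of all loci were called. An unadjusted p under 0.05 was reached by 19, where 4.36% of all loci reached it. The lower loci belonged to the L-type pores Cacna1d and Cacna1c and to 3 sodium channels of central neurons, and all 5 kept their calls under every alternative. Exon 16 of Scn3a (chr2:65497048-65497997) had 2.32 to 4.83 CPM (median 3.24) in C and 1.35 to 2.68 (median 2.37) in MS. The Scn8a locus in exon 16 (chr15:101012878-101013988) had 2.79 to 5.4 CPM (median 4.02) in C and 2.1 to 3.46 (median 2.87) in MS. For the last exon of Scn1a the values were 1.08 to 2.39 CPM (median 1.61) and 0.386 to 1.54 (median 0.816). The MS libraries were centred lower in each of these genes and the ranges overlapped. The lg2FC were -0.58 ± 0.20, -0.50 ± 0.18 and -0.89 ± 0.29 (SE), with edgeR adjusted p of 1. Cacna1c changed by -0.83 ± 0.27 (adjusted p = 1). The higher locus was an intron of Cacna1e (0.78 ± 0.29, adjusted p = 1), which was lost without S18 to S26 and under 2 other choices of libraries.

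Within Tph2-/-, 5 channel loci were called for MS, all higher (1.12%), where 1.48% of all loci were called, and 27 passed an unadjusted p under 0.05, where 7.11% of all loci did. The smallest p of any channel locus in the data belonged to intron 2 of Cacna2d2 (chr9:107443718-107444602), which also overlaps the noncoding gene Gm17118.
Cacna2d2 intron 2 locus, chr9:107444011-107444310: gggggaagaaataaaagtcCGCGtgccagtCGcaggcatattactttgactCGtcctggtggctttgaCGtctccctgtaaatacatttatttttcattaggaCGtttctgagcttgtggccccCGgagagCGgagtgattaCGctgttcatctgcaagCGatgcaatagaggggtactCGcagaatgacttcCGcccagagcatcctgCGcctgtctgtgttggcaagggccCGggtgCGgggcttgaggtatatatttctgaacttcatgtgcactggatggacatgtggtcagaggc
These 300 bases hold 15 of the 30 CpG of the locus. Capture was 1.43 to 2.98 CPM (median 1.61) in Tph2-/- C and 2.29 to 5.44 (median 3.42) in Tph2-/- MS, and the medians of the other groups were 1.81 to 2.34. The Tph2-/- MS libraries were the highest group, with a small overlap with their controls. The lg2FC was 0.92 ± 0.21 (SE, edgeR adjusted p = 0.503), and the call was kept under every alternative. The other calls, Cacna1i exons 12 to 13 (0.54 ± 0.18), an intron of Cacna1e (0.49 ± 0.17), intron 2 of Cacna1s (0.45 ± 0.17) and intron 2 of Cacnb4 (0.63 ± 0.24), had edgeR adjusted p of 0.655 to 0.676. Each of these 4 was lost when replicate 2 in place of replicate 7 of Tph2-/- MS was left out beside replicate 3.

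Genotype effects were averaged over C and MS. For Tph2-/- against Tph2+/+, 4 channel loci were called (0.893%), 2 higher and 2 lower, where 0.748% of all loci were called, and 21 passed an unadjusted p under 0.05, where 4.08% of all loci did. Intron 4 of Cacna2d3 (chr14:29403128-29403743) was lower, with medians of 1.79 and 1.46 CPM in Tph2+/+ C and MS and 0.851 and 0.721 in Tph2-/- C and MS. Its lg2FC was -0.74 ± 0.23 (SE, edgeR adjusted p = 1), and it was the 1 call of the 4 that held under every alternative. The others were Cacnb3 exons 10 to 12 (0.39 ± 0.14), the Cacna1c intron (-0.55 ± 0.21) and exon 4 of Cacnb4 (0.43 ± 0.16), with edgeR adjusted p of 1.

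For Tph2+/- against Tph2+/+, 6 channel loci were called (1.34%), 3 higher and 3 lower, where 0.546% of all loci were called, and 20 passed an unadjusted p under 0.05, where 3.47% of all loci did. Intron 3 of Cacna1c (chr6:118817455-118817966) was lower, with 1.31 to 2.30 CPM (median 1.54) in Tph2+/+ C and 0.733 to 1.32 (median 0.868) in Tph2+/- C, and medians of 1.64 and 0.999 after MS. The 2 C groups touched at 1 value each, and the MS groups overlapped. Its lg2FC was -0.62 ± 0.19 (SE, edgeR adjusted p = 1). An intron of Cacna1e (-0.65 ± 0.21) and the last exon of Scn1a (-0.53 ± 0.20) were lower as well. Exon 6 of Scn4a (0.37 ± 0.13), exon 6 of Scn8a (0.32 ± 0.11) and intron 7 of Cacna1d (0.47 ± 0.17) were higher, with edgeR adjusted p of 1 for all of them. The calls in Cacna1c, Cacna1e, Scn4a and Scn8a were kept under every alternative.

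Sums over all loci of a gene gave a more precise value for the gene as a whole, and at this level few calls were made. For GE1, 0 of 27 gene sums were called, where 0.500% of all genes with a locus were called, and 0 passed an unadjusted p under 0.05, where 3.08% of all genes did. For GE2, 0 were called (0.511% of all genes) and 1 passed an unadjusted p under 0.05 (3.28% of all genes), Cacna2d2 with an lg2FC of 0.16 ± 0.08 (SE, edgeR adjusted p = 1). DESeq2 called 0 sums in both interactions. The lg2FC of the 27 sums ranged from -0.38 to 0.55 for GE1 and from -0.46 to 0.40 for GE2, and the ends belonged to Cacna1f, Scn2b, Cacnb1 and Scn4b, which have 1 or 2 loci each.

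For MS over genotypes, 0 gene sums were called by edgeR, where 3.29% of all genes were, and 1 by DESeq2, while 7 passed an unadjusted p under 0.05, where 17.9% of all genes did. These were the 3 T-type genes, Cacna2d1, Cacna2d3, Cacnb2 and Scn1a, all higher after MS, with the smallest p for Cacna1g (lg2FC 0.14 ± 0.04, SE, edgeR adjusted p = 0.108). The unadjusted p by edgeR was 0.00109 for Cacna1g and 0.00531 for Cacna1i, under the limit of 0.01. Both sums, with an lg2FC of 0.14, missed a call only by the limit of 0.2. Without S18 to S26 the lg2FC were 0.06 ± 0.04 for Cacna1g, 0.02 ± 0.03 for Cacna1i, -0.05 ± 0.03 for Cacna1h, -0.01 ± 0.07 for Cacna2d1, 0.02 ± 0.03 for Cacna2d3, 0.01 ± 0.05 for Cacnb2 and 0.01 ± 0.05 for Scn1a, with adjusted p of 0.900 to 0.992. For MS within Tph2+/+, 0 were called (1.43% of all genes), and 0 passed an unadjusted p under 0.05 (7.20% of all genes). Within Tph2+/-, 0 were called (0.662% of all genes), and 1 passed an unadjusted p under 0.05 (4.09% of all genes), Scn3a with an lg2FC of -0.20 ± 0.09 (SE, edgeR adjusted p = 0.995). DESeq2 also called 0 within Tph2+/+ and Tph2+/-. For Tph2-/- against Tph2+/+, 0 sums were called (0.603% of all genes) and 1 passed an unadjusted p under 0.05 (4.49% of all genes), that of Cacna1g. For Tph2+/- against Tph2+/+, 0 were called (0.389% of all genes) and 0 passed an unadjusted p under 0.05 (3.01% of all genes). DESeq2 called 0 in these genotype contrasts too.

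Within Tph2-/-, MS went with 2 called gene sums of 27 (7.41%), both higher, where 2.16% of all genes with a locus were called, and 5 passed an unadjusted p under 0.05, where 10.7% of all genes did. The called genes were the T-type pores Cacna1g and Cacna1i. Cacna1g had 39.6 to 44.2 CPM (median 43.4) in Tph2-/- C and 39.6 to 68.8 (median 48.2) in Tph2-/- MS. Cacna1i had 70.2 to 75.2 CPM (median 72.1) in C and 63.6 to 124 (median 82.2) in MS. Cacna1h, the remaining T-type gene, had 63.8 to 74.8 CPM (median 69.1) in C and 61 to 144 (median 70.2) in MS. In all 3 genes the MS range covered the C range, and 1 library, replicate 2 of Tph2-/- MS, was the highest.

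The lg2FC of these sums were 0.22 ± 0.08 for Cacna1g (SE, edgeR adjusted p = 0.415), 0.24 ± 0.09 for Cacna1i (adjusted p = 0.415) and 0.25 ± 0.12 for Cacna1h (adjusted p = 0.457, not called). Single loci of these genes share the same libraries, so that counts of loci are descriptive and not counts of independent animals. Among the single T-type loci, 45 of 52 were higher after MS in Tph2-/- with a median lg2FC of 0.22, where 52.1% of all loci were higher with a median of 0.013, and 1 was called. Over genotypes 44 of 52 were higher with a median of 0.13, where 50.4% of all loci were higher with a median of 0.002, and 4 were called. Over genotypes the count was 27 of 52 with a median of 0.01 and 1 call without S18 to S26, and 35 of 52 with a median of 0.04 and 0 calls by edgeR with the CpG slope as a covariate, where 2 loci passed an unadjusted p under 0.05. The share of all loci higher under these settings is not given here or below, so these counts are not set against the series.

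These values moved when libraries were left out. Leaving out S18 to S26 removed replicates 1, 2 and 4 of the 6 Tph2-/- MS libraries. Without S18 to S26 the lg2FC of the sums in Tph2-/- were 0.04 ± 0.08 for Cacna1g, 0.00 ± 0.07 for Cacna1i and -0.12 ± 0.07 for Cacna1h, and 24 of 52 loci were higher with a median of -0.03. With the CpG slope as a covariate they were 0.12 ± 0.06, 0.10 ± 0.05 and 0.03 ± 0.06, with 36 of 52 loci higher and a median of 0.06. When replicate 2 in place of replicate 7 was left out beside replicate 3 they were 0.13 ± 0.06, 0.11 ± 0.07 and 0.06 ± 0.09. Replicate 2, which is S19, had a CpG slope of 0.242. The T-type loci had a median of 2.15 CpG per 100 bp, the highest of the 7 families by a small margin. The calcium beta loci, the P/Q-, N- and R-type loci (2.09) and the sodium channel alpha loci (2.08) lay close below. Their median lg2FC for MS in Tph2-/- with 46 libraries were 0.06, 0.14 and -0.01, against 0.22 for the T-type loci. Whether CpG density accounts for the T-type values was not tested.

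**Figure D4:**
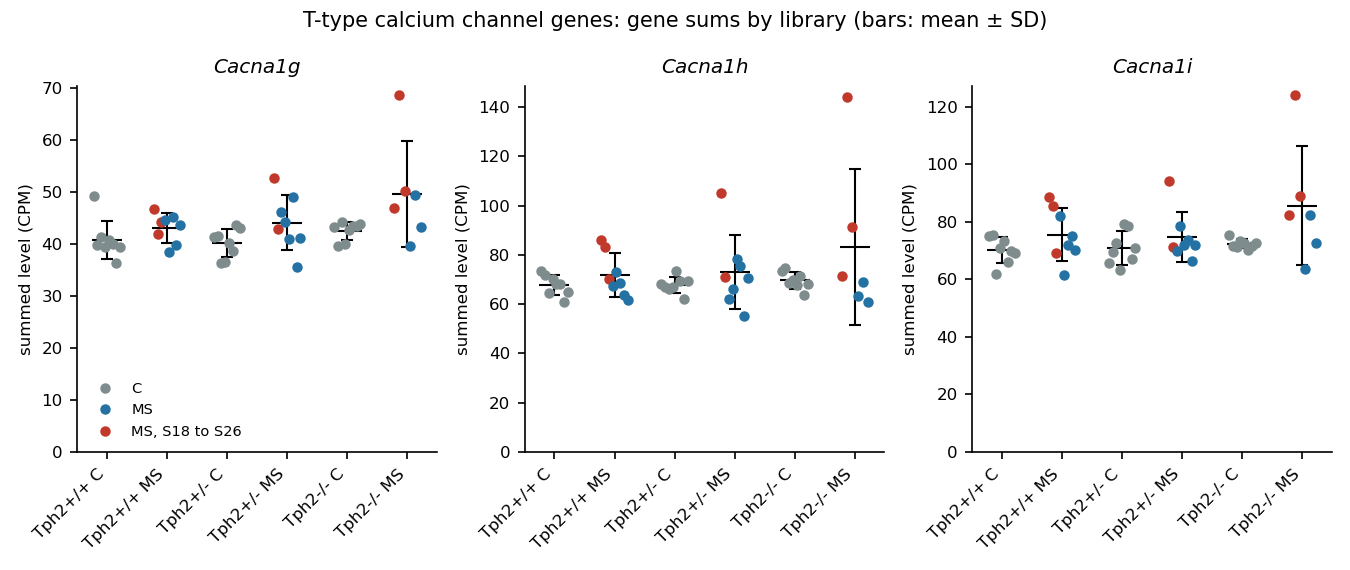
Summed CPM over all loci of Cacna1g, Cacna1h and Cacna1i in each library (points) by group, with mean ± SD as black bars; red points are the MS libraries S18 to S26. The highest point of each gene is replicate 2 of Tph2-/- MS, at 68.8, 144 and 124 CPM, while the Tph2-/- C libraries lie within 39.6 to 44.2, 63.8 to 74.8 and 70.2 to 75.2 CPM.

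Across all 27 genes, 23 sums had a higher value after MS in Tph2-/- and the median lg2FC was 0.07, where 60.3% of all genes were higher with a median of 0.043. Without S18 to S26, 12 of 27 were higher with a median of -0.014, where 46.8% of all genes were higher. Single genes moved in either direction: the lg2FC of Cacna2d1 was 0.22 ± 0.16 with these libraries and -0.15 ± 0.14 without, that of Cacnb2 was 0.16 ± 0.12 and -0.13 ± 0.10, and that of Cacnb4 was 0.05 ± 0.07 and 0.17 ± 0.07. By family, 59 of 95 alpha2delta loci were higher with a median of 0.04 with these libraries and 52 of 95 with a median of 0.05 without, and 59 and 64 of 119 sodium channel alpha loci were higher, with medians of -0.01 and 0.04. The share of all loci higher is given above only for the fit with these libraries. In Cacna1d and Scn11a the values were 0.02 ± 0.04 and 0.09 ± 0.04 with these libraries and 0.02 ± 0.05 and 0.09 ± 0.05 without.

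**Figure D5:**
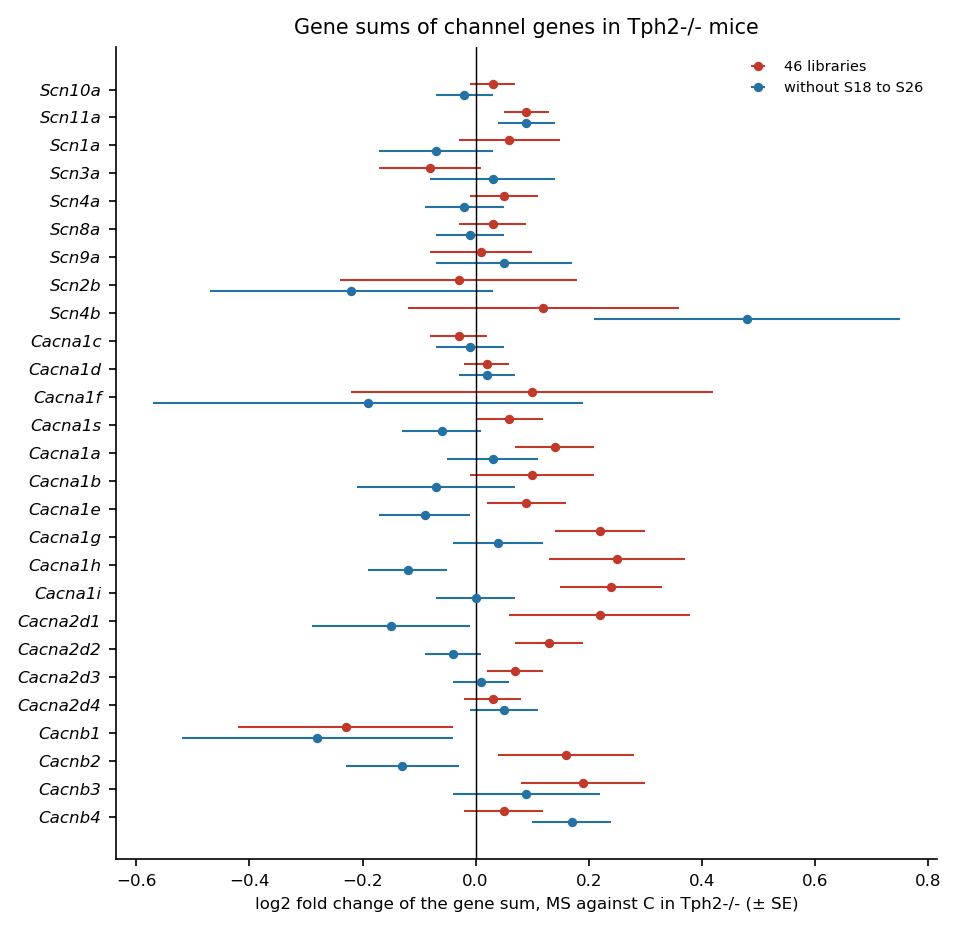
lg2FC of the gene sum for MS against C in Tph2-/- (horizontal axis, points with SE) for the 27 channel genes. Red is with 46 libraries and blue is without S18 to S26. Blue lacks replicates 1, 2 and 4 of the 6 Tph2-/- MS libraries. Cacna1g, Cacna1h and Cacna1i lie at 0.22, 0.25 and 0.24 in red and at 0.04, -0.12 and 0.00 in blue, while Cacna1d stays at 0.02.

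A list of 26 partner genes held 242 loci, among them gamma subunit genes, genes of fibroblast growth factor homologous factors, scaffolds of the axon initial segment and the active zone, calmodulin genes and the leak channel gene Nalcn. Of these, 1 was called for GE1, 0 for GE2, 11 for MS over genotypes (10 of them higher), 1, 0 and 2 for MS within Tph2+/+, Tph2+/- and Tph2-/-, and 1 for each genotype contrast. Of all loci, 0.626% were called for GE1, 0.558% for GE2, and 1.31%, 0.779% and 1.48% for MS within Tph2+/+, Tph2+/- and Tph2-/-. The shares were 0.748% for Tph2-/- and 0.546% for Tph2+/- against Tph2+/+. For MS over genotypes the partner calls were 11 of 242 where 3.63% of all loci were called, and without S18 to S26 they were 2, both lower. Sums were available for 23 partners, of which 1 was called for MS over genotypes and 1 for MS within Tph2-/-, where 3.29% and 2.16% of all genes were called. Without S18 to S26 edgeR called 0 and 2 of these sums. For that setting, the share of all loci called for MS over genotypes is given above. The share of all genes called for MS within Tph2-/- is given below.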

How the data were processed

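DNA captured with a methyl-CpG-binding domain was measured in 48 amygdala libraries. The authors aligned the reads to GRCm38 with Bowtie2 2.1.0, called peaks with MACS, merged them over libraries and counted reads per peak with DiffBind 2.0.9, and they deposited raw counts per locus. How duplicate and multi-mapping reads were treated is not given in the sources used here. A peak shows capture, not a methylation percentage.

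Groups came from the labels. Loci were assigned to genes (body and 5 kb on each side) with a GRCm38 annotation, in which exon numbers follow the transcript with the longest coding sequence. Counts of a gene's loci were summed. All loci and all gene sums were fitted in edgeR 4.0.16 (R 4.3.3) with TMM scaling and the quasi-likelihood test, with 1 term per group and 46 libraries, and p-values were adjusted after Benjamini-Hochberg over all 187695 loci or 37004 genes. CPM used library totals of 7.72 to 14.1 Mcounts. The test was checked on simulated data. Alternatives were DESeq2 1.42.0, its size factors, a minimum mean of 20 counts, other choices of libraries, the CpG slope as a covariate and a replicate block. Named loci were the 6 of smallest p among those called in a contrast, every called sum, start-site loci and each gene's highest locus. The genes and lists were chosen with earlier results of these data known. Libraries of a group were taken as separate animals, as the study describes them. The study assigned whole litters to MS or C, and the labels used here do not name the litter. Siblings could therefore not be taken into account, and the SE and p treat animals as independent. In the comparisons of MS with C, the part of sample number cannot be told apart from MS.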

Additional observations from a re-analysis of the deposited data

Results flagged for a closer look

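A gap test for a single library far from the rest of its group marked 19 of 162 gene and group pairs, where chance marks about 1 in 20 groups, or 8.1 here. Values are summed CPM per gene, with the nearest other library of the group in parentheses. Replicate 1 of Tph2+/- MS (S22, CpG slope 0.16) was marked for 6 genes: Scn8a at 95.7 (80.8), Cacna1e at 56.1 (45.9), Cacna1h at 104.8 (78.4), Cacna1i at 94.2 (78.4), Cacna2d1 at 115.2 (80.1) and Cacnb2 at 47.9 (35.9). Replicate 2 of Tph2-/- MS (S19, slope 0.242) was marked for Cacna1g at 68.8 (50.2) and Cacna1h at 143.5 (91.4), and replicate 1 of Tph2+/+ MS (S21, slope 0.09) for Cacna2d1 at 119.5 (86.9). These 9 marks, all on the high side, fell in libraries S18 to S26, and the part of CpG-dependent capture in them was not tested. The other mark in an MS library was Cacnb4 at 41.5 (37.7) in replicate 4 of Tph2+/- MS.

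Among C libraries, the marks were Scn4a at 36.3 (43.9) and Cacnb1 at 5.52 (3.66) in replicate 7 of Tph2+/- C, and Scn8a at 107.5 (88.0) and Cacna1a at 60.7 (50.5) in its replicate 5, the library with the lowest total of the series at 7.72 Mcounts. Cacna1d stood at 118.4 (132.6) in replicate 3 of Tph2+/- C. In Tph2+/+ C, Cacna1g stood at 49.2 (41.3) in replicate 1 and Cacnb1 at 5.48 (3.66) in replicate 5. In Tph2-/- C, Cacnb2 stood at 38.6 (33.6) in replicate 1 and Cacna1s at 47.2 (53.9) in replicate 2.

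The effect of MS differed between genotypes at the limits of the study for 4 loci, none with an adjusted p under 0.05 by edgeR. In Cacna1d, GE1 was -0.90 in intron 3 and 1.07 at the locus shared with Dcp1a, and GE2 was 0.72 at exons 48 to 49 (lg2FC). In Cacna2d2, GE2 was 0.59 at exon 3.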

How the results depend on the processing

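Counts of called channel loci stayed within 1.5 times in most alternatives and moved beyond that in the following, where the count in the 46 libraries stands in parentheses and the share of all loci called under the same setting follows. A minimum mean of 20 counts tested 315 loci and gave 1 call for GE1 (2), 0.61% of all loci, 4 for MS in Tph2+/+ (7), 1.33%, 3 for MS in Tph2+/- (6), 0.746%, 1 for Tph2-/- against Tph2+/+ (4), 0.734%, and 2 for Tph2+/- against Tph2+/+ (6), 0.517%. DESeq2 gave 4 for GE1 (2), 0.784%. Without S18 to S26, GE1 gave 4 (2), 0.766%, and MS over genotypes 7 (15), 1.26%. With the CpG slope as covariate, GE1 gave 5 (2), 0.907%, GE2 4 (2), 0.827%, MS over genotypes 8 (15), 1.39%, and Tph2-/- against Tph2+/+ 2 (4), 0.907%. With all 48 libraries, MS in Tph2-/- gave 13 (5), 5.37%, and Tph2-/- against Tph2+/+ 2 (4), 1.04%. With replicates 2 and 3 of Tph2-/- MS left out in place of 3 and 7, MS over genotypes gave 9 (15), 2.58%, MS in Tph2-/- 3 (5), 0.855%, and Tph2-/- against Tph2+/+ 1 (4), 0.634%. The causes were not tested. For gene sums, MS over genotypes (0) gave 1 call with DESeq2, 4.18% of all genes, and 2 with all 48 libraries, 5.85%, and MS in Tph2-/- (2) gave 0 with replicates 2 and 3 out, 0.8%, 0 without S18 to S26, 1.09%, and 0 with the CpG slope, 0.886%. Of all 47 calls, 16 were kept in every alternative and 27 were lost without S18 to S26, where the MS groups were smaller. The level per gene stayed within its SD in all 54 alternatives.

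Replicate numbers in the labels did not pair the samples: of 110 same-numbered pairs of libraries 14 had a correlation over 0.1, with a median of 0.0141 against -0.000607 in other pairs. With the replicate block, MS in Tph2-/- gave 3 called loci (1.44% of all loci) and 1 called gene sum (2.0% of all genes), and the counts of the other contrasts stayed within 1.5 times.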
